A study of Mus musculus with 22 samples.

Results

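The genes described here encode potassium channels and HCN channels, with their auxiliary subunits, in photoreceptors and bipolar cells of the mouse retina. They are the rows of the deposited table whose Ensembl identifier maps to a mouse symbol that starts with Kcn, or with Hcn followed by a digit. The rule leaves out 1 further gene that matches it. This gave 61 of the 13790 genes with a symbol, and 59 of them passed the filter on low values described with the first test. Kcnj4 and Kcnq5 did not pass it. Kcnj4 had reads in 2 libraries, at 13.6 CPM in 1 rod library of P13 and 0.242 CPM in 1 bipolar library of that age, and Kcnq5 reached 3.61 CPM in 1 cone bipolar library and stayed under 1 CPM elsewhere.

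Potassium channels let potassium leave the cell and so set the resting potential and end depolarizations. Voltage-gated Kv channels are tetramers of alpha subunits. Silent Kv subunits (Kcnv2, the Kcng genes, Kcnf1) form no channel alone and join Kv2 tetramers, and Kv beta, KChIP and KCNE proteins bind and modify the tetramer. Inward rectifiers (Kir) and two-pore (K2P) channels hold the resting potential, while BK, SK and Slo2 channels open with calcium or sodium. HCN channels pass a mixed cation current that grows with hyperpolarization. In photoreceptors Kv2 channels that hold Kv8.2 (Kcnv2) carry the steady outward current of the inner segment, and HCN channels shorten the response to bright light. Loss of human KCNV2 causes a cone dystrophy with a supernormal rod response.

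RNA was measured in sorted retinal cells by RNA sequencing after linear amplification. The labels give 5 cell types: rods, cones and bipolars, each at postnatal day 7 (P7), day 13 (P13) and day 30 (P30), with rod and cone bipolars in separate libraries at P13 alone. Each of the 11 groups has 2 libraries, 22 in all. The labels used here give tissue, age and cell type, and leave unstated whether paired libraries are from different animals. Every p below therefore measures only the spread between libraries. The series' design text calls the bipolars ON bipolars. Recovered totals ran from 14.4 to 54.4 M reads (megareads), and 3 reads corresponded to 0.0541 to 0.170 CPM (reads scaled by the authors' effective library size in M reads) in single libraries. Marker genes followed the labels: the summed level of 7 cone markers was 16837 to 46043 CPM as group means in cones and at most 464 CPM in bipolars. The 6 rod markers summed to 13437 to 23261 CPM in rods, 3251 to 7995 CPM in cones and 140 to 283 CPM in bipolars. The 7 pan and ON bipolar markers summed to 6720 to 9304 CPM in bipolars, 20704 CPM in rod bipolars and 7426 CPM in cone bipolars, and to 1042 to 2173 CPM in photoreceptors. Of the markers of other cells, the 8 Müller glia genes stood out in bipolars, with mean sums of 209 CPM at P7, 1031 CPM at P13 and 6998 CPM at P30. In such bulk samples, fewer cells of a type and less RNA per cell cannot be told apart.

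The cell types differed in how many of the 61 genes passed a set level. A group mean of at least 10 CPM was reached by 7 or 8 of the genes in rods, by 13 or 14 in cones and by 26, 32 and 36 in bipolars at P7, P13 and P30. The share of all genes at that level was not counted. Over all genes, 981 to 2463 had no reads in a rod library, 374 to 2384 in a cone library and 311 to 862 in a bipolar library of the 3 ages. Whether the difference is particular to channel genes was therefore not tested. Levels of different genes were compared per kilobase of exon, as CPM divided by the gene's summed exon length. Whether the amplification kept reads even along transcripts was not tested. On that scale 1 gene led each photoreceptor type. Kcnv2 took 40.6%, 53.3% and 39.7% of the summed level of all 61 genes in rods at P7, P13 and P30, and Kcne2 took 75.6%, 85.8% and 83.4% in cones. Bipolars spread the sum over more genes: their leader was Kcne1l (KCNE5) with 21.97% at P7 and Kcna5 (Kv1.5) with 16.4% at P13 and 18.3% at P30. Among the P13 subtypes, Kcne2 led in rod bipolars with 45.2%, and Kcna5 with 14.4% and Kcng4 with 14.1% led in cone bipolars.

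**Figure D1:**
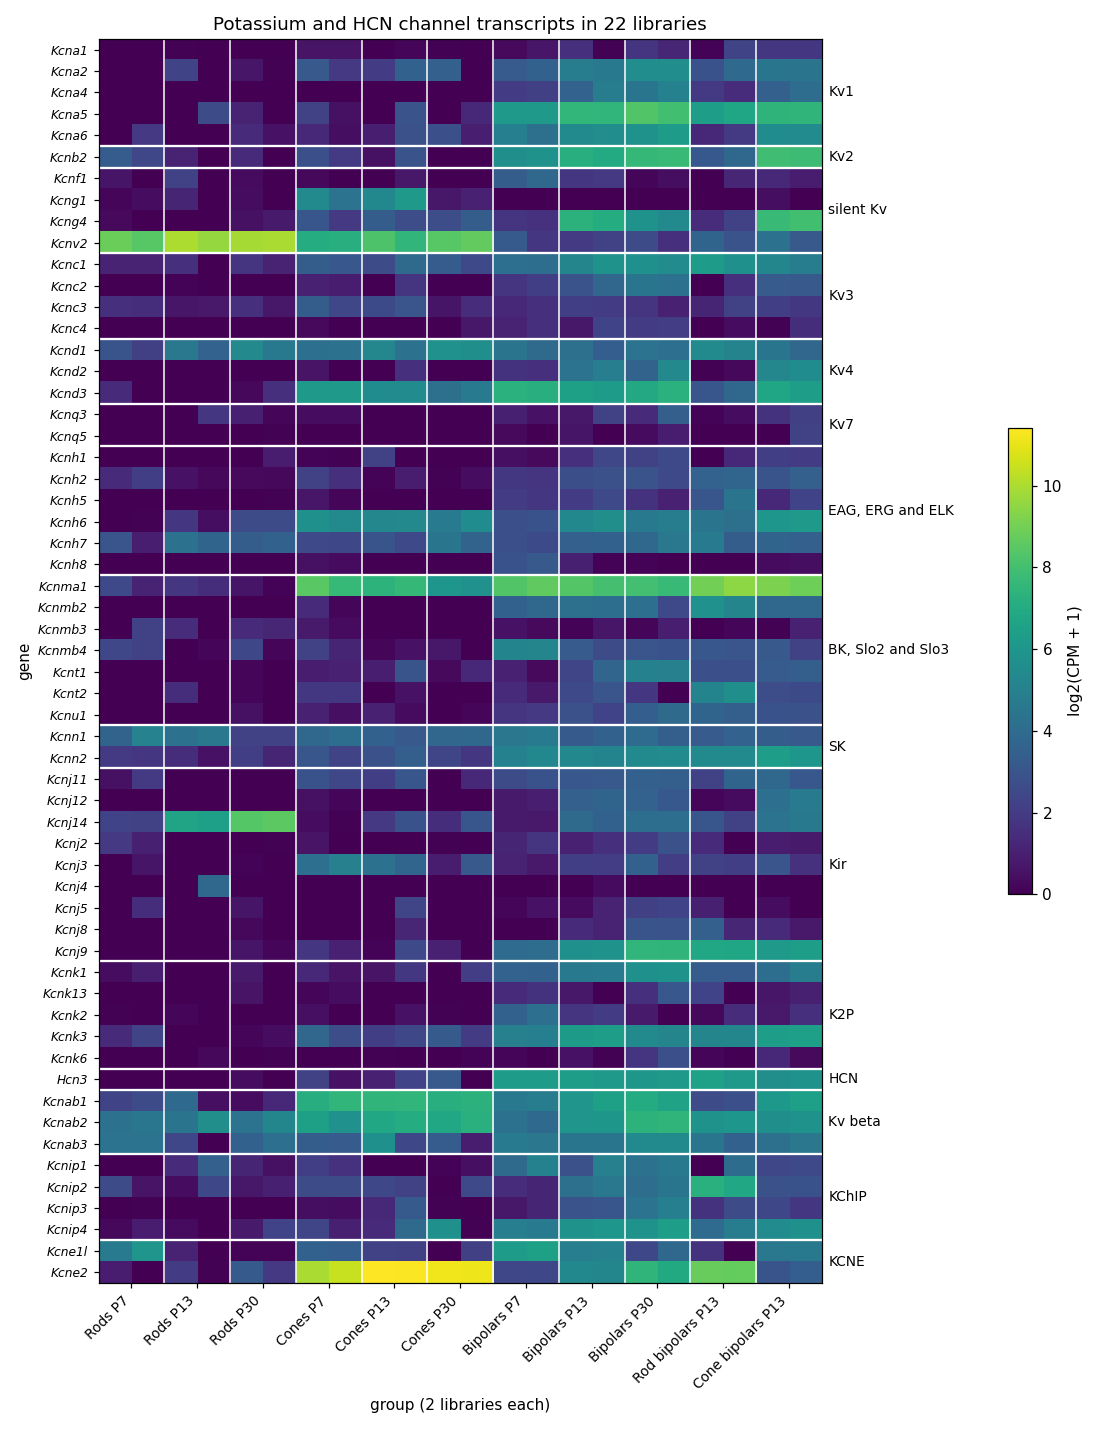
Level of 58 channel genes, as log2(CPM + 1), in each of the 22 libraries; rows are genes ordered by channel family and columns are libraries ordered by cell type and age. Rods show few bright rows (Kcnv2, and Kcnj14 at the later ages), cones add Kcne2, Kcnma1, Kcnab1 and Kcnab2, and bipolar libraries show signal across most families.

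Comparisons were tested with limma on the deposited log2 CPM of all 22 libraries, with p adjusted after Benjamini and Hochberg over 13410 genes. A call needed an adjusted p under 0.05 and a log2 difference of at least 1. To be tested, a gene needed a group in which both libraries had log2 CPM of at least 0. Where a group had no reads, the fitted log2 value depends on the small prior in the deposited values. That fitted value is no bound, and where a fold is printed for such a gene it is a lower bound, against 3 reads over both libraries of that group. The first question was how the channel set of rods differs from that of cones. Of the 59 genes tested, rods were higher for 1 and lower for 23 at P7, where 3.30% of all genes were called higher and 9.54% lower. At P13 rods were higher for 3 and lower for 23, against backgrounds of 7.10% and 14.1%. At P30 rods were higher for 1 and lower for 10, against 9.99% and 10%, so the share called lower, 16.9%, stood closer to its background than the 39.0% at P7 and at P13. The median log2 difference, rods minus cones, was -2.49, -3.09 and -0.13 over the 59 genes at the 3 ages and -0.16, -0.11 and 0.14 over all genes. With groups without reads set to their 3-read level the medians of the 59 were -2.26, -1.88 and -0.64. At P7, 10 of the 24 called genes had a mean under 2 CPM in the higher group and 12 had no reads in 1 group, so some of these calls rest on low levels in cones. With plain library totals the P30 split was 5 higher and 8 lower. A fit of the rods and cones of 1 age alone called 6 genes at P13, each lower in rods, and 5 at P30, 3 higher and 2 lower. All 6 of the first and 2 of the second were among the genes called over all libraries. Of all genes, these 2 fits called 491 and 858, against 2843 and 2685 in the fit of all libraries. The P7 count fell to 9, 14 or 14 when Cones P7 replicate 1, Cones P7 replicate 2 or Rods P7 replicate 1 was left out. The P13 count was 17 without Rods P13 replicate 2.

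Kcnv2, the silent subunit of the inner segment current, was high in both photoreceptors and low in bipolars. Kcnv2 (GRCm38, chr19:27322588-27337179, plus strand) read 460 and 349 CPM in rods at P7, 1041 and 793 at P13, and 936 and 996 at P30. In cones it read 133 and 146 CPM, then 296 and 184, then 344 and 404. At P30 the cone mean was 38.7% of the rod mean, while the rod markers Nrl, Nr2e3, Cngb1 and Gnat1 stood at 2.06% to 4.27% of their rod means in the same cone libraries and Sag at 96.6%. Every rod library was above both cone libraries of its age, but the difference was called at P13 only (log2 1.96 ± 0.54, adjusted p = 0.014) and was 1.52 ± 0.54 at P7 and 1.37 ± 0.54 at P30 (adjusted p = 0.071 and 0.078). The P13 call was lost in 4 of 14 alternative analyses. Bipolars held 2.0 to 8.5 CPM over their 3 ages, and were lower than photoreceptors (the mean of the rod and cone groups), with log2 differences of -5.67 ± 0.47 (SE), -7.15 ± 0.47 and -7.52 ± 0.47 at the 3 ages.

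Pex5l, whose product TRIP8b binds HCN channels and guides their traffic, belonged to the list of 15 channel partner genes. It read 650 and 481 CPM in rods at P7, 1898 and 2027 at P13, and 1607 and 1550 at P30. The cone libraries held 405 to 745 CPM and the bipolar libraries of the 3 ages 4.35 to 9.35 CPM, below every photoreceptor library. Pex5l was lower in bipolars than in photoreceptors, with log2 differences of -6.32 ± 0.31 at P7 and -7.40 ± 0.31 at P13, and was higher in rods than in cones by a log2 difference of 1.56 ± 0.36 at P13 and 1.65 ± 0.36 at P30. At P7 the rod and cone libraries overlapped and Pex5l was not called (log2 0.26 ± 0.36, adjusted p = 0.72).

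Kcnj14, a Kir channel gene (Kir2.4), was the gene that rods had over cones at every age. Rod libraries read 3.95 and 3.64 CPM at P7, 100.9 and 85.6 at P13, and 342 and 373 at P30. Cone libraries stayed between 0.0541 and 7.33 CPM. Each rod library was above both cone libraries of its age, and the mean ratio was 21.6-fold at P7, 20.6-fold at P13 and 78.0-fold at P30. The log2 difference was 4.79 ± 0.75, 4.48 ± 0.75 and 6.60 ± 0.75 (adjusted p = 0.00044, 0.0005 and 1.3e-05). Kcnj14 also reached 16.3 and 16.5 CPM in P30 bipolars, which was 4.59% of the rod mean, while Kcnv2 stood at 0.381% of its own. Rod markers there ranged from 0.0946% of the rod mean for Nr2e3, through 0.676% for Gnat1, 0.939% for Nrl and 1.24% for Sag, to 11.5% for Cngb1, and their part was not tested. At P7 and P13 Kcnj14 in bipolars, with means of 0.740 and 12.5 CPM, stood at 19.5% and 13.4% of the rod mean. The same markers stood at 0.885% to 2.30% and at 0.275% to 2.75%. In P13 cone bipolars Kcnj14 stood at 22.8%, and Nrl, Nr2e3, Cngb1 and Sag at 1.65% to 6.21%. In P13 rod bipolars Kcnj14 stood at 5.88% and these markers at 1.67% to 8.06%. The part of rod RNA was not tested here either. The P7 and P13 calls of Kcnj14 between rods and cones were lost in the fit of those groups alone (adjusted p = 0.094 and 0.061). The third gene called higher in rods at P13, Kcnip1, had 1.69 and 10.2 CPM in rods and no reads in cones of that age.

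Kcne2 had the largest fitted difference between rods and cones at each age. It encodes a single-pass subunit of the KCNE family that modifies the gating of the channels it joins. In cones it read 986 and 1385 CPM at P7, 2735 and 2641 at P13, and 2283 and 2245 at P30. In rods the 6 libraries lay between 0.0219 and 8.33 CPM. The rod libraries were uneven, at 0.882 and 0.0219 CPM at P7 and at 8.33 and 2.71 CPM at P30, so no fold of means is given. The log2 difference, rods minus cones, was -12.82 ± 1.42 at P7, -12.64 ± 1.42 at P13 and -8.89 ± 1.42 at P30 (adjusted p = 1.4e-05, 1.2e-05 and 0.0003), and the P13 call was lost in the fit of P13 rods and cones alone (adjusted p = 0.11). The gene lies at chr16:92292389-92298129 on the plus strand, and no other annotated gene shares its exons. Since Kcne2 led the cone set and Kcng4 (described with the bipolar subtypes) divided rod from cone bipolars, the 250 bases before the first annotated start of Kcne2 and before that of Kcng4 are shown, from RefSeq on GRCm38.p6, read 5′ to 3′ on the gene's strand. Capitals mark TAATC or its reverse complement, the core bound by OTX2 and CRX, the homeodomain factors of photoreceptors and bipolars; this motif was chosen after the data were seen.
Kcne2: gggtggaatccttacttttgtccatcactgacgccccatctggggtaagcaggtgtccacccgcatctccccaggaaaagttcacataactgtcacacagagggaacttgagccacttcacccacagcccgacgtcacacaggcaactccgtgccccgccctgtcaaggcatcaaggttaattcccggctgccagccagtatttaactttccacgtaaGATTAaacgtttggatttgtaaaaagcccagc
Kcng4: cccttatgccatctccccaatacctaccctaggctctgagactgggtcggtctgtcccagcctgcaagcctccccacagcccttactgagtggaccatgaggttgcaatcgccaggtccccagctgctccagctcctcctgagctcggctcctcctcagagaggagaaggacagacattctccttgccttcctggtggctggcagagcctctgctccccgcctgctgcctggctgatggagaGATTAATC
The Kcne2 window (chr16:92292139-92292388) held 1 TAATC, on the minus strand, beginning 32 bases before the start. A later annotated start of Kcne2 has its own window (chr16:92295366-92295615), not shown, which held no TAATC and no TAATTA. The Kcng4 window (chr8:119635681-119635930, minus strand) held 2 that overlap, 1 on each strand, beginning 8 and 5 bases before the start. Searched on both strands, TAATC was present in 13 of the 60 windows of this length that matched 42 of the channel genes (21.7%) and in 19.8% of all 32851 windows, which is close to the same share. TAATTA, also searched on both strands, was in none of the 60 and in 4.84% of all windows.

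The other genes that cones had over rods belonged to several families. Kcnma1, the pore of the BK channel, read 358 and 198 CPM in cones at P7, 164 and 196 at P13, and 63.5 and 53.3 at P30. All 6 rod libraries were at 4.75 CPM or less. The log2 difference was -6.84 ± 0.68, -6.38 ± 0.68 and -8.10 ± 0.68 (adjusted p of at most 7.2e-06). The Kv beta subunit gene Kcnab1 read 139 to 183 CPM across the 6 cone libraries and 0.294 to 14.1 CPM across the 6 rod libraries, with log2 differences of -5.10 ± 1.07, -6.27 ± 1.07 and -7.82 ± 1.07. Kcnab2 differed less, at -1.80 ± 0.37, -1.96 ± 0.37 and -2.31 ± 0.37, with 54.5 to 149 CPM in cones and 18.9 to 49.5 CPM in rods. Kcnab1 and Kcnab2 were thus lower in rods at all 3 ages. The remaining Kv beta gene, Kcnab3, was called lower in rods at P13 only (log2 -6.42 ± 1.94, adjusted p = 0.023). Its P13 libraries were uneven, with 4.46 and 0 CPM in rods and 51.9 and 4.61 CPM in cones. That size depends on the rod library without reads and so on the small prior in the deposited values. At P7 and P30 both rod libraries of Kcnab3 were above both cone libraries, without a call (log2 1.12 ± 1.94 and 2.30 ± 1.94).

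Kcnd3 (Kv4.3, an A-type channel) read 69.6 and 71.7 CPM in P7 cones and 17.8 and 24.8 in P30 cones, with at most 1.93 CPM in any rod library. It was called lower in rods at each age. Kcnh6, an ERG channel gene, read 25.3 to 51.9 CPM in cone libraries. Rod libraries of Kcnh6 had 0.0201 and 0.0438 CPM at P7 (1 and 2 reads) and 5.39 and 5.13 at P30. The log2 difference went from -10.30 ± 0.67 to -2.71 ± 0.67, and its P7 size depends on the small prior in the deposited values. Kcnj3, a subunit of G protein-gated Kir channels, read 16.9 and 30.8 CPM in cones at P7 and 0.841 and 8.21 at P30, and was called lower in rods at all 3 ages. An antisense transcript shares 31.1% of the Kcnj3 exons, and the kit named in the labels keeps no strand. Reads of the 2 therefore cannot be told apart in the shared part. The antisense gene is also in the deposited table, with a mean of 1.56 CPM over all libraries. Kcng1, a silent subunit gene, was at 42.7 and 19.4 CPM in cones at P7, 38.6 and 71.4 at P13 and 0.681 and 1.06 at P30. No bipolar library of the 3 ages had a Kcng1 read, and rods held at most 1.26 CPM.

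**Figure D2:**
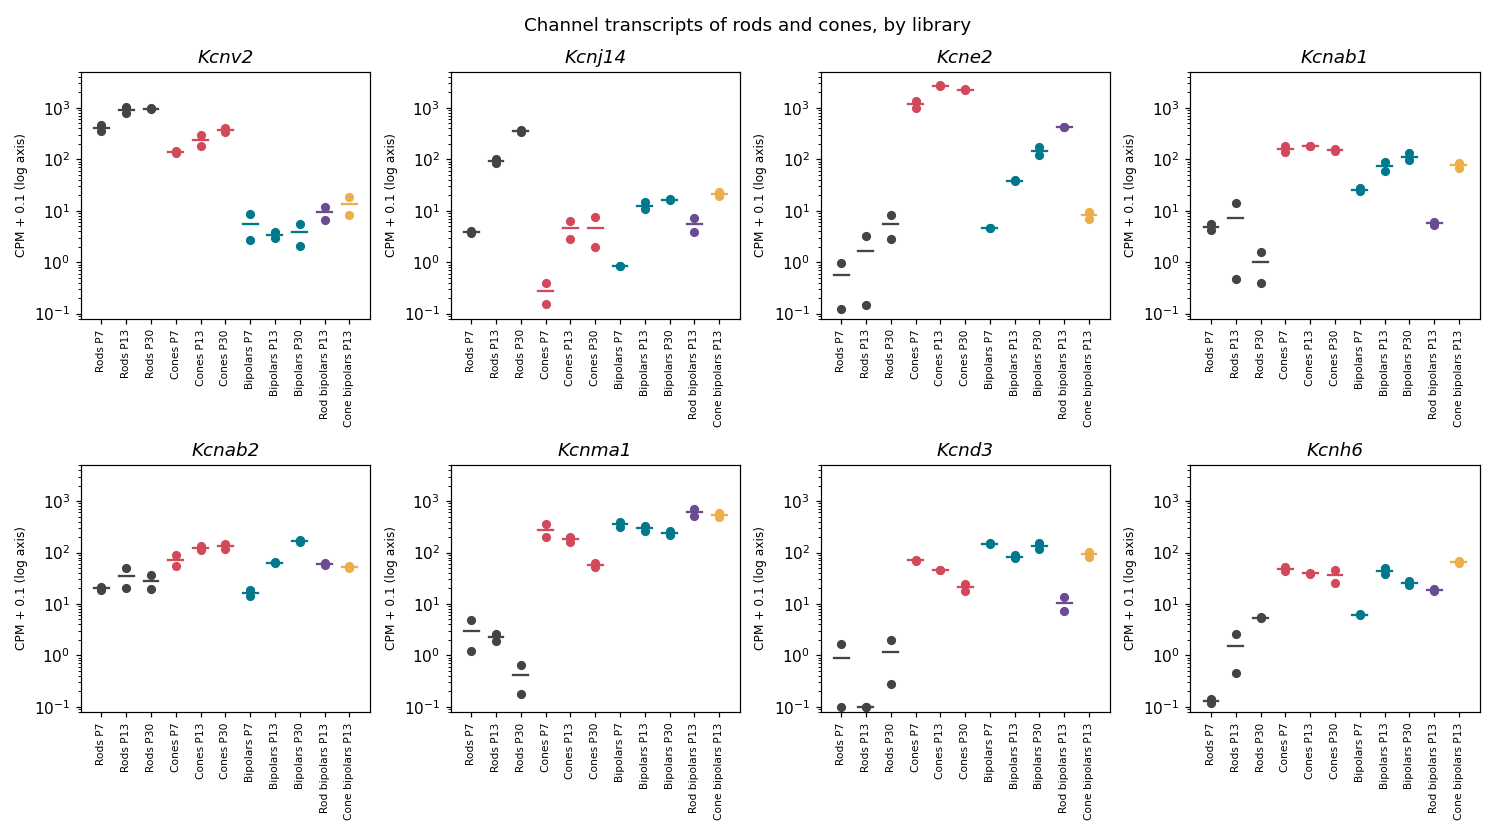
Level of 8 genes in each library (points) with the mean of the 2 libraries of a group (bar), as CPM + 0.1 on a log axis, by cell type and age. Kcnv2 is high in rods and cones, Kcnj14 rises in rods to 342 and 373 CPM at P30, and Kcne2, Kcnab1, Kcnab2, Kcnma1, Kcnd3 and Kcnh6 are higher in cones than in rods.

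At each age bipolars were then set against photoreceptors, taken as the average of the rod and cone group means. They were higher for 22 of the 59 genes and lower for 5 at P7, against backgrounds of 11.6% and 11.1% of all genes. At P13 they were higher for 36 and lower for 3, against 20.6% and 12.8%, and at P30 higher for 41 and lower for 4, against 22.6% and 13%. The share called higher was thus 37.3%, 61.0% and 69.5% of the genes tested. The Müller glia markers given above also rose with age in these bipolar groups, and the part of other cells in these calls was not tested. The median log2 difference over the 59 genes was 2.95, 5.47 and 5.47, and over all genes 0.12, 0.18 and 0.13. With groups without reads set to their 3-read level the medians of the 59 were 2.70, 4.44 and 5.27. Kcnv2 and Kcng1 were among the genes lower in bipolars at all 3 ages, and the P30 call of Kcng1 held in 5 of 16 alternatives. Kcnab2 was also lower at P7, and Kcnd1 at P30. The count of called genes fell from 45 to 27 at P30 without Bipolars P30 replicate 2, and from 27 at P7 to 16 without Bipolars P7 replicate 1 and 15 without replicate 2.

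The genes higher in bipolars came from nearly every family. All 5 Kv1 genes were called higher at P30, led by Kcna5, which gives a delayed rectifier. Kcna5 read 71.9 and 69.9 CPM in bipolars at P7, 189.7 and 180.2 at P13, and 323 and 249 at P30. Photoreceptor libraries held 0 to 6.47 CPM, below every bipolar library, and the log2 difference was 9.51 ± 2.81, 9.80 ± 2.81 and 11.51 ± 2.81 (adjusted p = 0.018, 0.011 and 0.0039). The P7 call of Kcna5 was lost without Cones P7 replicate 2 or either P7 bipolar library, the P13 call without either P13 bipolar library and in the fit of the groups compared alone, and the P30 call in none of 16 alternatives. Kcna4, the A-type Kv1 gene, read 3.07 to 30.9 CPM in bipolars, with no reads in the rod libraries and at most 0.0186 CPM in a cone library. Its P30 mean was at least 847-fold the rod level and at least 509.8-fold the cone level.

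Kcnb2 (Kv2.2, a delayed rectifier) was high in bipolars. It read 51.0 and 55.3 CPM in bipolars at P7, 145 and 124 at P13, and 192 and 207 at P30. Rods held 0 to 8.88 CPM and cones 0 to 6.63 CPM, again below every bipolar library. The difference was not called at P7 (log2 3.39 ± 1.88, adjusted p = 0.20) and was called at P13 and P30 (8.38 ± 1.88 and 12.78 ± 1.88, adjusted p = 0.0023 and 6.8e-05). Some photoreceptor libraries had no Kcnb2 reads, and the SE is pooled over all libraries. Hcn3, an HCN channel gene, was high in bipolars too. Bipolar libraries held 64.0 to 84.0 CPM over the 3 ages, rods at most 0.317 CPM and cones at most 8.05 CPM. Its log2 difference was 9.62 ± 1.99, 9.31 ± 1.99 and 9.28 ± 1.99 (adjusted p = 0.0018, 0.0017 and 0.0016). Hcn3 had no rod reads at P7 and P13, and its bipolar mean was at least 2452-fold and at least 1759-fold the rod level there. A neighbouring gene on the other strand, Pklr, shares 17.1% of the Hcn3 exons and is not in the deposited table, and its part in these reads was not tested.

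Among inward rectifiers, Kcnj9 (GIRK3, a channel subunit gated by G protein beta and gamma subunits) was high in bipolars. It read 14.8 and 15.9 CPM at P7, 52.3 and 57.6 at P13, and 183 and 176 at P30. Photoreceptor libraries held at most 4.72 CPM, and the log2 difference was 7.14 ± 1.65, 9.70 ± 1.65 and 10.22 ± 1.65 (adjusted p of at most 0.0041). Kcnj12 (Kir2.2) had 0.791 and 0.961 CPM at P7, 10.2 and 11.8 at P13, and 11.2 and 7.93 at P30. No rod library had a Kcnj12 read, and of the cone libraries only the P7 ones had any, at 0.429 and 0.144 CPM. Of the 8 Kir genes tested, 2, 5 and 7 were called higher in bipolars at the 3 ages.

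Two-pore channels followed the same direction. Kcnk3 (TASK-1, a leak channel closed by acid) read 30.2 and 29.8 CPM in bipolars at P7, 74.4 and 83.1 at P13, and 41.2 and 35.5 at P30, above every photoreceptor library (at most 12.4 CPM). Kcnk1 read 10.9 and 10.7 CPM at P7 and 52.6 and 55.9 at P30, and was called higher at P13 and P30 (log2 8.03 ± 1.93 and 8.999 ± 1.93). Kcnn2, the SK2 gene, was called at all 3 ages (log2 3.20 ± 0.54, 3.78 ± 0.54 and 4.04 ± 0.54), with 31.0 to 43.8 CPM in bipolars and 0.453 to 9.84 CPM in photoreceptors.

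A channel called higher than the mean of rods and cones was not always higher than cones. Kcnma1 was called at all 3 ages (3.84 ± 0.59, 3.90 ± 0.59 and 6.06 ± 0.59), yet at P7 the cone libraries, at 358 and 198 CPM, overlapped the bipolar libraries at 319.6 and 397. By P30 bipolars held 257 and 215 CPM against 63.5 and 53.3 in cones. The cone mean was 77.6% of the bipolar mean at P7 and 24.7% at P30, while the ON bipolar receptor gene Grm6 stood in cones at 1.53% and 0.605% of its bipolar mean and the bipolar marker Cabp5 at 313% and 48.1%. The part of bipolar RNA in the cone values was not tested. Kcnd3 in bipolars read 155 and 143 CPM at P7 and 119 and 154 at P30, above the cone libraries at each age. Kcnh6 was called at P7 and P13, but at P7 its bipolar libraries (6.003 and 6.27 CPM) lay below the cone libraries (51.9 and 42.8 CPM). At P13 its bipolar libraries (38.9 and 48.9 CPM) overlapped the cone libraries (38.4 and 40.6 CPM).

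Subunits that pair with Kv4 channels went the same way. All 4 KChIP genes, which encode calcium-binding subunits of Kv4, were called higher in bipolars at P30. Kcnip4 read 57.6 and 81.7 CPM in P30 bipolars. The P30 cone libraries were uneven for Kcnip4, with 51.3 CPM in 1 and 0.0589 in the other. Kcnip3 read 19.2 and 29.2 CPM in P30 bipolars and at most 0.0400 CPM in P30 photoreceptors. The Kv4 partner genes Dpp6 and Dpp10 stood at 112 and 116 CPM and at 5.65 and 17.5 CPM in P30 bipolars. In all, of the 13 partner genes tested, 6, 8 and 10 were called higher in bipolars at the 3 ages and 3, 2 and 2 lower. The shares of all genes called were 11.6%, 20.6% and 22.6% higher and 11.1%, 12.8% and 13% lower. Whether the partner counts differ from these shares was not tested.

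Further families held fewer calls or lower levels. Of the 4 Kv3 genes, whose channels let neurons fire fast, 1, 3 and 3 were called higher in bipolars at the 3 ages. Kcnc1 read 16.9 and 16.4 CPM at P7 and 52.4 and 44.1 at P30 in bipolars, and was called at P13 and P30 (log2 5.47 ± 1.35 and 3.89 ± 1.35). Of the 6 genes of the EAG, ERG and ELK channels, 3, 5 and 3 were called higher, and of the 7 BK, Slo2 and Slo3 genes 3, 6 and 5. Kcnmb2, a BK beta subunit gene, read 4.80 to 17.6 CPM in bipolars with no reads in rods at any age or in cones at P13 and P30 (log2 7.73 ± 1.11, 11.19 ± 1.11 and 10.29 ± 1.11). The Kcnmb2 mean in bipolars was at least 377-fold, 386-fold and 359-fold the rod level at the 3 ages, and at least 467-fold and 216-fold the cone level at P13 and P30. Some genes were called in young bipolars and not at P30. The silent subunit gene Kcnf1 read 9.45 and 13.1 CPM at P7 and 0.152 and 0.335 at P30, and was called higher than photoreceptors at P7 only (7.40 ± 2.67, adjusted p = 0.048). The two-pore gene Kcnk2 (TREK-1, opened by stretch) read 10.5 and 16.8 CPM at P7 and 0.760 and 0 at P30, and was called at P7 and P13. The change from P7 to P30 passed the test for neither Kcnf1 nor Kcnk2 (adjusted p = 0.25 and 0.060).

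**Figure D3:**
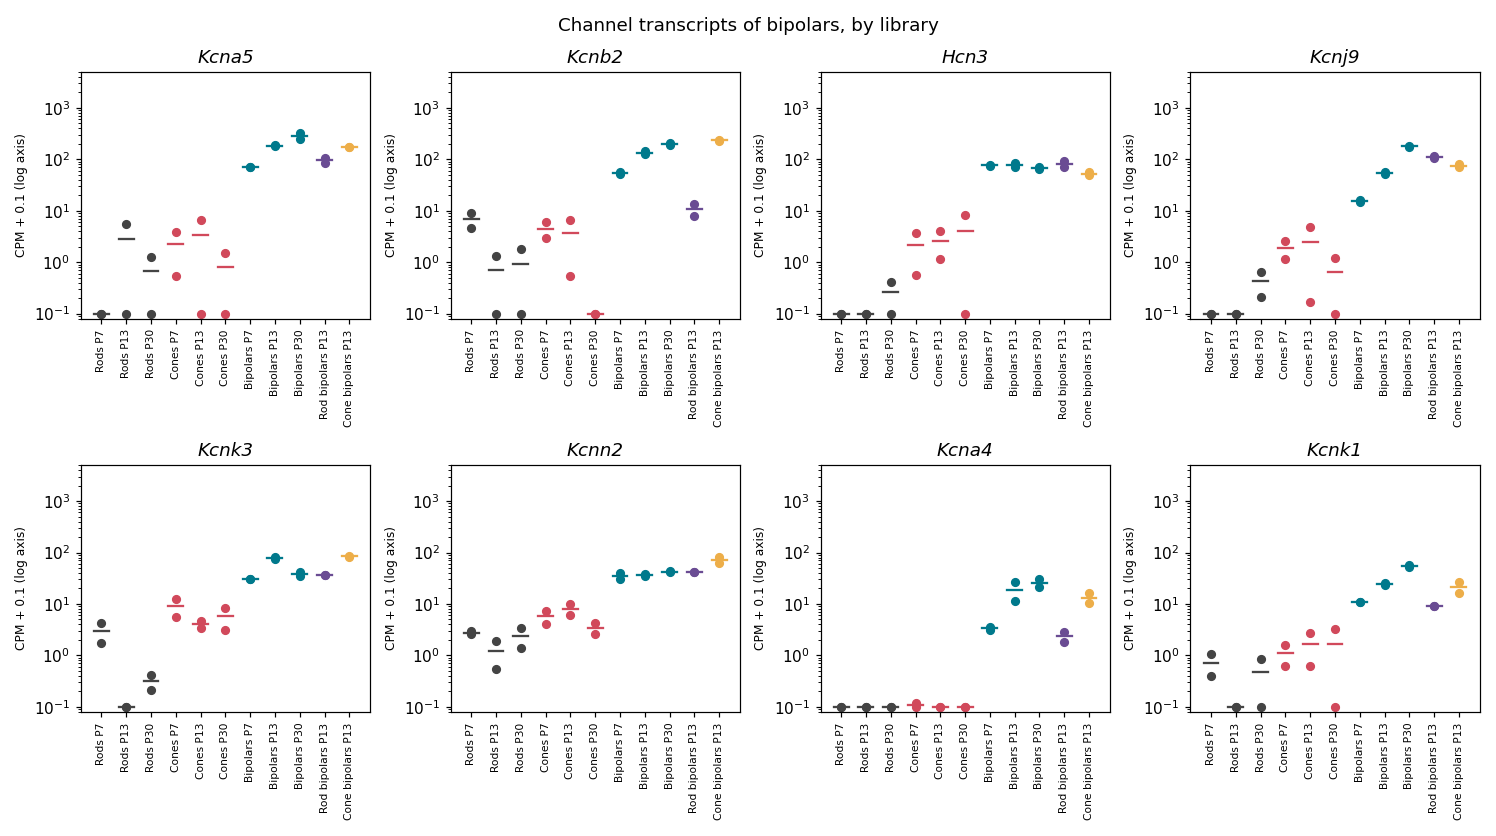
Level of 8 genes in each library (points) with the mean of the 2 libraries of a group (bar), as CPM + 0.1 on a log axis, by cell type and age. The libraries labelled bipolars lie above all rod and cone libraries in each panel, and the Kcnb2 and Kcna4 points of rod bipolars sit below those of cone bipolars.

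At P13 the 2 bipolar subtypes could be compared directly. Rod bipolars carry rod signals to amacrine cells, and cone bipolars of the ON class carry cone signals to ganglion cells. Of the 59 genes, 2 were called higher in rod bipolars and 4 lower, against 1.51% and 3.17% of all genes. The sum of 4 rod bipolar markers was 7487 CPM in rod bipolars and 392 CPM in cone bipolars. With plain library totals the split was 1 higher and 5 lower, and the count was 2 without Cone bipolars P13 replicate 2, 3 without the other cone bipolar library and 3 without Rod bipolars P13 replicate 1.

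Kcng4, a silent subunit gene, was nearly confined to cone bipolars at this age, with 208 and 246 CPM there and 1.72 and 3.58 CPM in rod bipolars, an 85.7-fold ratio of means. The log2 difference, rod minus cone bipolars, was -6.51 ± 1.20 (adjusted p = 0.0035). Kcng4 forms channels only with Kv2 subunits such as Kcnb2. Kcnb2 read 7.77 and 13.4 CPM in rod bipolars and 242 and 224 in cone bipolars, a 22.03-fold ratio of means with no overlap. Kcnb2 was not called in the fit over all libraries (log2 -4.51 ± 2.17, adjusted p = 0.30), whose spread includes photoreceptor libraries with few or no reads. It was called in the fit of the 2 subtypes alone (SE 0.30, adjusted p = 0.010). Of the 11 settings that kept every library, both of these fits among them, 4 called Kcnb2.

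Kcne2, the cone-leading gene above, read 433 and 419.8 CPM in rod bipolars and 6.78 and 9.51 CPM in cone bipolars. The ratio of means was 52.4-fold and the log2 difference 5.73 ± 1.42 (adjusted p = 0.025), a call that was lost without any 1 of the 4 libraries. Cone markers give values to set beside it. Kcne2 in rod bipolars stood at 15.9% of the P13 cone mean, and the cone arrestin gene Arr3 at 0.200% of its own. Cone markers summed to 69.4 CPM in rod bipolars and 195 CPM in cone bipolars. Of the 7, Gnat2, Gngt2, Cngb3 and Opn1sw had the lower mean in rod bipolars, and Arr3 (11.997 against 3.12 CPM), Pde6h (7.72 against 4.33) and Pde6c (7.36 against 4.59) the higher one, as Kcne2 did. Their part in the Kcne2 difference was not tested. Kcnj12 was lower in rod bipolars, at 0.162 and 0.252 CPM against 16.8 and 26.0 (log2 -6.64 ± 1.11, adjusted p = 0.0018). Kcnd2 (Kv4.2) also was, at 0.0324 and 0.202 CPM against 38.0 and 45.3 (log2 -8.83 ± 2.19, adjusted p = 0.025). The call of Kcnh8 rested on 0.273 and 0.332 CPM in cone bipolars against no reads.

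Several further genes had libraries that did not overlap between the subtypes and were not called over all libraries. They were called in the fit of these 2 groups. That fit called 14 channel genes and 787 of all genes, against 6 and 628 over all libraries. Of the 11 settings that kept every library, the main fit among them, Kcnab1 was called in 8. Kcnip2, Kcnd3 and Kcna6 were called in 4 and Kcnt2 in 3. Kcnip2 read 152 and 110.4 CPM in rod bipolars and 6.04 and 6.38 CPM in cone bipolars (adjusted p = 0.28 over all libraries and 0.0073 in the 2 groups). The order was reversed for Kcnab1, with 5.11 and 6.002 CPM in rod bipolars and 67.1 and 85.0 in cone bipolars (0.051 and 0.010). Kcnd3 had 7.32 and 13.4 CPM against 104 and 82.6 (0.31 and 0.023), and Kcna6 1.49 and 2.82 CPM against 45.9 and 44.9 (0.23 and 0.021). Kcnt2, a Slo2 gene chosen after its values were seen, had 34.1 and 49.8 CPM in rod bipolars and 5.49 and 4.90 in cone bipolars (0.68 and 0.023). An antisense gene shares 39.6% of the Kcna6 exons. Kcnma1 was high in both subtypes with overlapping libraries: it read 513 and 716 CPM in rod bipolars and 580.5 and 482 in cone bipolars, with a log2 difference of 0.20 ± 0.68.

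**Figure D4:**
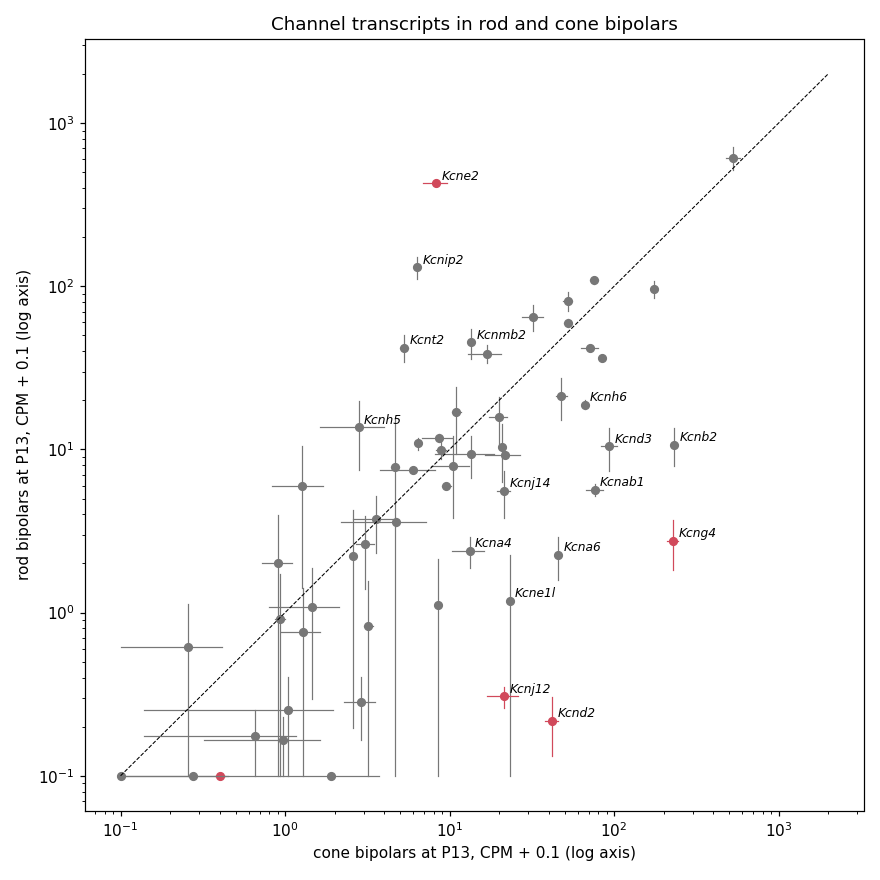
Mean CPM + 0.1 of 58 channel genes in rod bipolars against cone bipolars at P13, with bars that span the 2 libraries of each group; red marks the genes called by limma over all libraries. Kcne2 lies on the rod bipolar side, and Kcng4, Kcnj12, Kcnd2 and Kcnh8 on the cone bipolar side.

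The last question was how the set changed from P7 to P30. In rods 6 genes rose and 7 fell, against 10.7% and 9.15% of all genes, so the shares of 10.2% and 11.9% were close to the background. A fit of the 2 rod ages alone called 4, and 941 of all genes against 2667 in the fit of all groups. Kcnj14 rose by 6.55 ± 0.75 (adjusted p = 1.7e-05), a 94.2-fold ratio of means. Kcnd1 (Kv4.1) read 6.86 and 3.51 CPM at P7 and 41.0 and 23.7 at P30 and rose by 2.67 ± 0.48. Kcnh6 rose by 7.14 ± 0.67 from the 1 and 2 reads at P7 given above, so that size depends on the small prior in the deposited values. Falls included Kcnn1 (SK1), from 11.5 and 32.9 CPM to 3.64 and 3.68 (-2.41 ± 0.46), and Kcnk3, from 1.64 and 4.12 CPM to 0.113 and 0.316 (-3.73 ± 0.70). Kcne1l fell from 25.9 and 61.8 CPM to 0.0679 and 0.0929 (-8.85 ± 2.67, adjusted p = 0.024), and this call was lost without any 1 of the 4 libraries. Kcnv2 rose in neither cell type by the test, with 1.27 ± 0.54 in rods and 1.42 ± 0.54 in cones.

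In cones 2 genes rose and 9 fell, against 3.18% and 7.28% of all genes. Kcnj14 (4.75 ± 0.75) and Kcnd1 (1.55 ± 0.48) rose, so both rose in rods and in cones. Kcnma1 fell by 2.19 on the log2 scale (SE 0.68, adjusted p = 0.045), a call that was lost without any 1 of the 4 libraries. Of the 11 calls, 4 were of genes under 2 CPM at their higher age. The count went to 19, with 1 rise and 18 falls, under plain library totals, which moved the median of all genes from -0.19 to -0.97, and to 1, 5 or 7 without Cones P7 replicate 1, Cones P7 replicate 2 or Cones P30 replicate 1.

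In bipolars 11 genes rose and 1 fell, against 7.96% and 4.50% of all genes. Kcnab2 rose from 18.8 and 13.9 CPM at P7 to 61.4 and 64.7 at P13 and 164 and 175 at P30 (P7 to P30, 3.39 ± 0.37, adjusted p = 1.5e-05), and this call held in each alternative tried. Kcng4 peaked at P13: it read 2.33 and 2.09 CPM at P7, 159 and 132 at P13, and 55.8 and 41.3 at P30 (P7 to P30, 4.44 ± 1.20, adjusted p = 0.019). Kcne2 rose from 4.47 and 4.58 CPM to 38.7 and 37.4 and to 174 and 119.9 (4.99 ± 1.42, adjusted p = 0.025), a call also lost without any 1 of the 4 libraries. Kcnj14, Kcnip3, Kcnt1, Kcnj12, Kcnk6 and Kcnj8 rose as well. Kcnj8, a subunit of ATP-sensitive channels of vascular cells, had no reads at P7 and 6.81 and 6.55 CPM at P30. Kcnh8 fell from 6.24 and 8.08 CPM to 0.0912 and 0. A fit of the 2 bipolar ages alone called 33 channel genes and 3394 of all genes, against 12 and 1670 in the fit of all groups. The count of channel genes fell when any 1 of the 4 libraries was left out of the fit of all groups.

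Markers of other cells moved with these rises. In bipolars the 8 Müller glia markers went from 202 to 217 CPM summed at P7 to 5438 to 8558 at P30, the 3 vascular markers from 0.396 to 0.884 CPM to 65.8 to 92.5, and the 3 microglia markers from 2.15 to 3.49 CPM to 107 to 251. None of these markers was without reads at either age. The 4 rod bipolar markers went from 653 to 731 CPM to 2054 to 2454. Their part in the rises of Kcne2, Kcnj8 and the other genes was not tested. At P30 Kcne2 stood in bipolars at 6.48% of the cone mean. Of the 7 cone markers there, Arr3, Pde6h and the short-wave opsin gene Opn1sw stood at 0.451%, 0.460% and 0.471% of their cone means, and Gngt2 and Gnat2 at 2.17% and 2.53%. Pde6c read 29.0 CPM in bipolars against 7674 in cones, and Cngb3 73.1 CPM against 1072. The part of cone RNA in the Kcne2 value was not tested. Rod markers moved beside Kcnj14 as well: from P7 to P30 the mean of Gnat1 went from 1.54 to 46.95 CPM in bipolars and from 5.11 to 296 CPM in cones, and that of Cngb1 from 7.81 to 116 CPM in bipolars and from 27.9 to 29.9 CPM in cones. Nrl and Nr2e3 had lower means at P30 than at P7 in both. In P30 cones Kcnj14 stood at 1.28% of the rod mean and these 4 markers at 2.06% to 4.27% of theirs, and the part of rod RNA in the rises of Kcnj14 was not tested.

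The change from P7 to P30 was also tested between cell types. It differed between rods and cones for 8 of the 59 genes, 7 higher in rods and 1 lower, against 6.06% and 4.57% of all genes. With plain library totals the split was 9 and 0. Kcnj12 and Kcnmb2, among the 7, had no rod reads at either age, so their difference is a fall in cones to no reads. It differed between bipolars and photoreceptors for 10 (9 higher in bipolars and 1 lower, against 6.87% and 4.27%). The first count fell to 1 without Cones P7 replicate 1, to 2 without Rods P30 replicate 1 and to 4 without Cones P7 replicate 2, Cones P30 replicate 1 or Rods P7 replicate 2. The second fell to 3 and 6 without Bipolars P7 replicate 1 and 2, to 4 without Bipolars P30 replicate 2 and to 5 without Cones P7 replicate 1. The Kcnh6 change was higher in rods than in cones by 7.59 ± 0.95. That size depends on the 1 and 2 rod reads at P7, and in cones Kcnh6 did not rise (log2 -0.46 ± 0.67). Kcnab2 rose more in bipolars than in photoreceptors, by 2.74 ± 0.45.

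**Figure D5:**
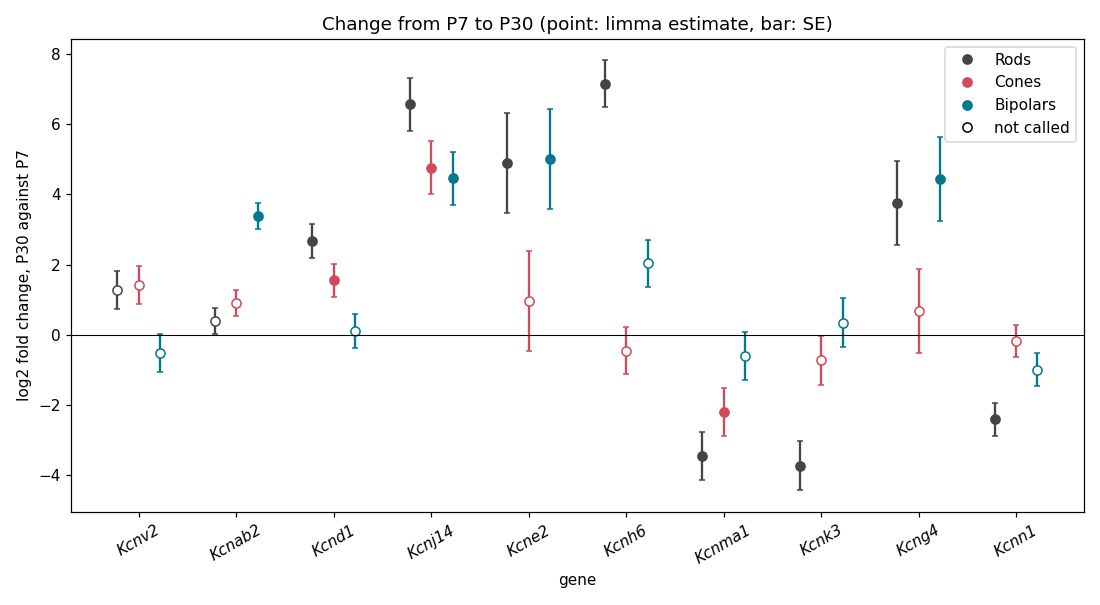
Log2 change from P7 to P30 with its SE for 10 genes in rods, cones and bipolars; filled points were called by limma and open points were not. Kcnj14 rose in all 3 cell types, by 6.55 in rods, 4.75 in cones and 4.46 in bipolars (the rod marker Gnat1 also had higher means at P30 in cones and bipolars), while Kcnab2 was called in bipolars alone.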

How the data were processed

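RNA sequencing of 22 libraries was analysed. The deposited values are log2 CPM, with a lowest value of -7.10 that stands for no reads (0.00728 CPM). Per the submitters' processing notes the authors used STAR, edgeR and GRCm38/mm10, with no versions. Per the labels' protocols, sorted cells gave RNA that was linearly amplified before a TruSeq library, a kit that keeps no strand. Of 13812 Ensembl identifiers, 13790 matched a symbol in GENCODE M21, and the other 22 held 0.0893% of reads. In every library all values gave whole reads within 0.01, so totals (14.4 to 54.4 M reads) and CPM were recovered. The authors' scaled library sizes were 0.608 to 1.23 times those totals, and no column of the deposited table was left unused.

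Genes were kept where some group had both libraries at log2 CPM 0 or more (13410, with 380 left out). limma 3.58.1 in R 4.3.3 was fitted with 1 coefficient per group, an intensity trend and Benjamini-Hochberg adjustment over all genes kept (11 residual and 4.27 prior degrees of freedom). Calls needed an adjusted p under 0.05 and a log2 difference of at least 1. The code was tested on simulated data. CPM per kilobase used summed exon length. Genes named are a set of channels known in the retina, the called genes with the 10 largest rises and falls per comparison whose libraries did not overlap and whose higher group had a mean log2 CPM of at least 1, and the leader of each family per kilobase in each cell type. Kcnt2 was named after its values were seen. The members and lists were chosen with earlier results of these data known. Some channel genes are not reported here by name. Alternatives changed the offset, filter, library totals, sample weights, libraries fitted and replicate block, left out each library, and, chosen after seeing the data, used limma's voom on the recovered reads.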

Additional observations from a re-analysis of the deposited data

Results flagged for a closer look

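The change from P7 to P30 differed between rods and cones, by an interaction term in limma, for 8 channel genes. Its log2 size, rods minus cones, was -2.23 ± 0.65 for Kcnn1, 5.14 ± 1.57 for Kcnj12, 5.87 ± 1.82 for Kcnmb2, 6.68 ± 1.81 for Kcnh5, 7.59 ± 0.95 for Kcnh6, 9.34 ± 2.70 for Kcnj9 and 11.19 ± 2.94 for Kcnq3. Of these 8, 5 were under 2 CPM in their highest photoreceptor group of the 2 ages, and 5 had at least 1 group without reads. Kcnj12 and Kcnmb2 had no rod reads at either age, and Kcnh5 had 2 in 1 rod library of P30. The sizes of Kcnj12 and Kcnmb2 come from falls in cones to no reads. That of Kcnh5 joins such a fall (-5.38) with a rod change of 1.31 that rests on those 2 reads. Kcnj9 had no rod reads at P7, and Kcnq3 had none in rods at P7 or in cones at P30. These 5 sizes depend on the small prior in the deposited values.

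The same change differed between bipolars and the mean of rods and cones for 10 genes. The log2 size, bipolars minus photoreceptors, was -2.01 ± 0.59 for Kcnd1, 2.74 ± 0.45 for Kcnab2 and 5.19 ± 1.47 for Kcnh2. It was 5.996 ± 1.36 for Kcnj12, 6.89 ± 1.56 for Kcnip3, 7.28 ± 2.15 for Kcnj11, 8.67 ± 2.46 for Kcnj8 and 9.39 ± 2.65 for Kcnb2. Of these 10, 5 had at least 1 group without reads, so their sizes depend on the small prior in the deposited values. Kcnj8 had no bipolar reads at P7. Kcnb2 had no cone reads at P30, and its own change in bipolars was 1.91 ± 2.17, which was not called. Groups of 2 libraries allowed no search for a library far from its group.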

How the results depend on the processing

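Over the called channel genes and the alternatives tried, 2975 values kept their call, 590 lost it and 0 reversed. Counts are of channel genes called. With log2(CPM + 1) they were 14 for rods against cones at P7, 30 for bipolars from P7 to P30, 18 for rod against cone bipolars, 5 for the age change in rods against cones and 30 for that in bipolars against photoreceptors. With log2(CPM + 0.1) they were 11, 3 and 19 for the last 3 of these. Plain totals gave 19 for cones from P7 to P30, and moved the median of all genes at P30, rods minus cones, from 0.14 to 0.74. Fitting only the groups compared gave 6 and 5 for rods against cones at P13 and P30, 4 for rods and 33 for bipolars from P7 to P30, and 14 for the bipolar subtypes. Array quality weights gave 17 for rods against cones at P13, 3 for cones and 20 for bipolars from P7 to P30, 10 for the subtypes and 3 for the age change in rods against cones. Voom gave 23 for bipolars from P7 to P30, 16 for the subtypes and 3 for that age change. Counts over all genes moved too. For bipolars from P7 to P30 the main fit called 1670 genes. With log2(CPM + 1), the groups compared alone, array weights and voom this became 3066, 3394, 3274 and 2122. For the subtypes 628 became 1251, 787, 923 and 896. With the groups compared alone, 2667 became 941 for rods from P7 to P30. For rods against cones 2843 became 491 at P13, and 2685 became 858 at P30. The cause of these moves was not tested.

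With 1 library left out, rods against cones gave 9 to 17 at P7, 17 to 27 at P13 (17 without Rods P13 replicate 2) and 10 to 12 at P30. Bipolars against photoreceptors gave 15 to 26, 26 to 44 and 27 to 40. From P7 to P30 the ranges were 9 to 12 in rods, 1 to 13 in cones and 6 to 8 in bipolars. They were 2 to 6 for the subtypes, 1 to 8 for the age change in rods against cones and 3 to 13 for bipolars against photoreceptors. A group with 1 library left was taken to vary like the others.

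Replicate numbers showed no clear pairing of samples: over 55 pairs of groups the correlation of replicate differences ran from -0.14 to 0.19, and 5 exceeded 0.1. This check cannot show whether groups shared animals, which the labels leave unstated. With a replicate block the counts were 25, 26 and 12 for rods against cones, 27, 39 and 44 for bipolars against photoreceptors, 14, 11 and 11 for rods, cones and bipolars from P7 to P30, 6 for the subtypes, and 7 and 12 for the age changes. A planned count test on the recovered reads was not run, and voom took its place. Levels under 3 reads, 0.0541 to 0.170 CPM, were not resolved.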
